A study of Homo sapiens with 6 samples.

Results

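The genes described here are 10 transcripts that mark different origins: 4 neuronal intermediate filament genes (NEFL, NEFM, NEFH and INA) and 6 regulators of the developing kidney (PAX2, PAX8, LHX1, WT1, GATA3 and EYA1). They were picked by symbol, and each of the 10 matched exactly 1 of the 37879 rows of the deposited table. Total RNA from HEK293T cells had been hybridized to 6 Illumina HumanWG-6 bead arrays. HEK293T is a human line that was made from embryonic kidney tissue and that carries the SV40 large T antigen. Cells in 3 control samples received the empty vector, and cells in 3 Stau1 samples received a plasmid coding for Stau155-FLAG, a tagged form of the RNA-binding protein Staufen1. All 6 samples had been kept in nocodazole (50 ng/ml, 15 h per the labels, longer per the study's methods), a microtubule poison that holds cells in prometaphase.

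Neurofilaments are the main intermediate filaments of axons. The light chain (NEFL), the medium chain (NEFM) and the heavy chain (NEFH) co-assemble, and alpha-internexin (INA) joins them in central neurons. The other 6 genes act at successive steps of kidney formation. PAX2, PAX8 and LHX1 specify the early renal epithelium, EYA1 and WT1 act in the mesenchyme that gives rise to nephrons, and GATA3 acts in the nephric duct and the ureteric bud.

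Intensities had been deposited without normalization, each with a detection p-value. For a row of 1 probe this is the rank of the signal among that array's negative control bead types, and for a row of several probes it is a combined value. The median intensity per array lay between 83.0 and 102.2, and between 33.6% and 35.6% of rows had a detection p under 0.05. After normalization the arrays correlated across rows with Pearson's r from 0.987 to 0.996, and control replicate 1 stood furthest from the others (0.987 to 0.991). STAU1, the gene on the plasmid, had a log2 level of 11.32 ± 0.10 in control arrays, against 11.47 ± 0.06 after transfection of the plasmid (SD, n = 3 each). That difference of 0.15 (SE 0.09) missed the threshold (limma, adjusted p = 0.999). The study saw the tagged protein by western blot, at a lower level than endogenous Staufen1. Protein was not measured on these arrays, and whether the STAU1 probe reads the plasmid transcript was not tested. Nothing in the labels says whether replicates came from separate transfections, so the tests measure only the spread between these arrays.

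NEFL, NEFM and INA were detected in these kidney-derived cells, while the rows of PAX2, PAX8 and EYA1 lay at or near background. NEFL, NEFM, INA, WT1 and GATA3 had a detection p under 0.05 on all 6 arrays. LHX1 passed on 4 arrays and PAX2 on 1. NEFH, PAX8 and EYA1 passed on none. Over the whole table, 28.8% of rows passed on all 6 arrays and 57.9% passed on none. A row was taken into the comparison when it passed on at least 3 arrays, which 6 of the 10 genes did (3 filament and 3 kidney genes), against 35.1% of all rows. Intensities of different genes depend on their probes and were not ranked against each other, so detection is what was read across genes. Detection also varied with the number of probes. Of the 1-probe rows 30.3% entered the comparison, against 56.5% of the rows of several probes. NEFL, NEFM and INA have whole bead numbers, whereas the rows of PAX2, PAX8 and EYA1 average several probes.

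**Figure D1:**
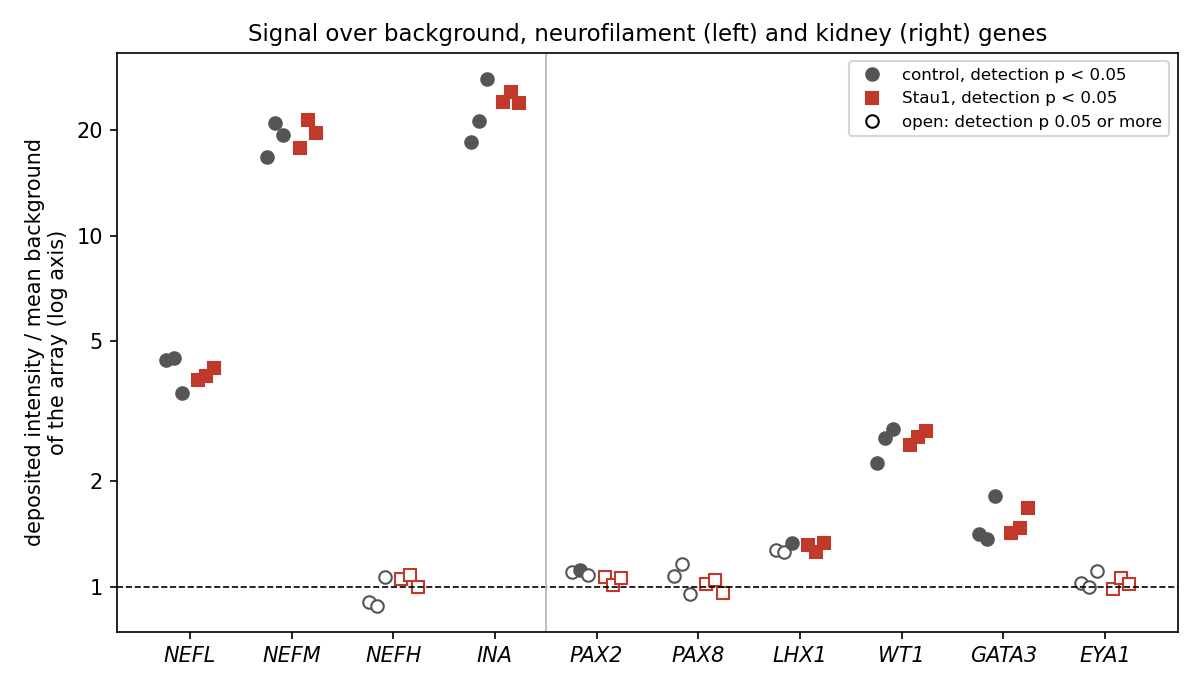
Deposited intensity of each gene divided by the mean background of its array (log axis), with 3 control arrays (circles) and 3 Stau1 arrays (squares) per gene. Filled symbols have a detection p under 0.05, and the dashed line marks the background: NEFL, NEFM, INA, WT1 and GATA3 are filled on all 6 arrays, and NEFH, PAX8 and EYA1 on none. Heights should be compared within a gene only.

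INA gave deposited intensities of 1480, 1693 and 2582 on control arrays 1 to 3. The Stau1 arrays 1 to 3 read 1796, 2336 and 2212. These were 18.5 to 27.8 times the mean background of the same array. The detection p was listed at 0 on every array, meaning that no negative control bead type was brighter. NEFM, which carries the long tail that spaces filaments in the axon, reached 1346, 1669 and 1790 in control and 1328, 1941 and 1821 in Stau1 arrays, or 16.8 to 21.3 times background. NEFL, the chain that neurofilaments need to assemble, was at 356, 359 and 330 in control and 289, 363 and 388 in Stau1 arrays. That was 3.56 to 4.50 times background, and its detection p was also 0 throughout. The bead error was small for all 3 genes, since the standard error over beads was 2.47% to 4.80% of the intensity, over 29 to 61 beads per array.

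NEFH, the heavy chain, was not detected. Its intensities were 72.5, 70.7 and 99.3 in control and 78.7, 98.7 and 92.5 in Stau1 arrays, between 0.885 and 1.08 times background. Its detection p ran from 0.200 to 0.780, with both groups at background. NEFH transcript was therefore not detectable with this probe, which does not show that it was absent.

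Among the kidney genes, WT1, a zinc finger factor of the nephron-forming mesenchyme and the podocyte, was detected on all 6 arrays. It gave 181, 212 and 261 in control and 190, 243 and 258 in Stau1 arrays, 2.26 to 2.82 times background, with a detection p between 3.47e-06 and 2.17e-05. That p combines 2 probes and is not on the scale of the 1-probe rows of GATA3 and LHX1. GATA3 was at 114, 109 and 169 in control and 106, 134 and 156 in Stau1 arrays. Its detection p ran from 0.00791 to 0.0316, so it passed by a small margin. LHX1, a LIM homeobox factor, straddled that threshold. Its detection p was 0.0527, 0.0646 and 0.0408 on control arrays 1 to 3. On Stau1 arrays 1 to 3 it was 0.0448, 0.0487 and 0.0343. The count of 1 control array against 3 Stau1 arrays thus rests on p-values that differ by little, and it was not read as a difference between groups.

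PAX2 and PAX8, a pair of closely related paired-box factors, were at 1.02 to 1.12 and at 0.957 to 1.16 times background. PAX2 gave 88.3, 89.4 and 100.2 in control and 79.5, 92.4 and 98.6 in Stau1 arrays, and passed only on control replicate 2, where its detection value was 0.0364. PAX8 gave 86.3, 92.8 and 88.7 in control and 76.1, 95.5 and 89.2 in Stau1 arrays, with its lowest detection p at 0.0610. EYA1, a transcriptional co-activator and phosphatase that works with homeobox factors such as SIX2, had a detection p from 0.204 to 0.622 and lay between 0.986 and 1.11 times background. The fractions in the mean bead numbers show that these 3 rows each average several probes (3 by the smallest divisor), while the WT1 row averages 2 and the other 6 genes have whole bead numbers. In rows of several probes the detection p does not follow the mean intensity (EYA2 read 192 to 254 and passed on 1 array), and the separate probes were not analysed here.

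The INA promoter is shown beside that of PAX8 because the first belongs to a filament gene detected on every array and the second to a kidney gene at background. Both are RefSeq sequences (GRCh38.p14), 250 bases up to the start of transcription, on the strand of the gene. INA lies at chr10:103276888-103277137 (plus strand) and PAX8 at chr2:113278922-113279171 (minus strand). Capitals mark the GC box letters GGGCGG or their complement CCGCCC, searched on both strands.

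INA: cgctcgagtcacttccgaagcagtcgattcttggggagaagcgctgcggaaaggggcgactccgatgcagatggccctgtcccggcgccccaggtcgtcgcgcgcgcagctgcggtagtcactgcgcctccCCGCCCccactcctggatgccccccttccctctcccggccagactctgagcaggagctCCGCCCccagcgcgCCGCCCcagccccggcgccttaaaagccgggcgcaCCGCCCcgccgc

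PAX8: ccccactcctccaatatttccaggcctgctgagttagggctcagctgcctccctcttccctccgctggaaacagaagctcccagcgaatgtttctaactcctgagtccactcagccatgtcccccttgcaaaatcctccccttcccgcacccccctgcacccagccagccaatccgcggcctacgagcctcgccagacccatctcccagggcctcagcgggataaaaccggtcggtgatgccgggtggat

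The INA window held 4 GC box matches and 30 CpG dinucleotides, and the PAX8 window held 0 matches and 11 CpG. At least 1 match was present in 42.6% of the 35116 promoter windows in the table, and 7.63% held 4 or more. At least 30 CpG occurred in 12.4% of the windows, and the median was 11. Only 5 of the 10 genes had an entry (INA, PAX2, PAX8, WT1 and GATA3), and several of them had more than 1 start. Both PAX2 windows had 0 matches, the WT1 windows had 0 or 1, and the 6 GATA3 windows had 0 to 5. These are descriptions of the letters and not of binding, and no measurement here was made at the promoters.

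The comparison of the groups asked whether transfection of the Stau155-FLAG plasmid went with a different level of these transcripts in prometaphase. None of the 6 genes that could be compared passed the test. In limma, 0 of the 6 passed an adjusted p of 0.05, as did 0% of the 13285 rows tested. At an unadjusted p under 0.05 limma also gave 0 of the 6, against 3.73% of all rows. The Stau1 arrays lay wholly above the controls in 0 of the 6 (4.51% of all rows) and wholly below in 0 of the 6 (3.4% of all rows). Exact two-sided permutation tests over the 6 arrays gave p from 0.3 (INA) to 1 (GATA3), where the smallest p this design allows is 0.1. In RNA from whole cultures, a transcript in fewer cells and a lower amount per cell cannot be told apart.

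INA had the narrowest range of the 3 filament genes. Its normalized log2 levels were 10.86, 10.79 and 10.97 on control arrays 1 to 3. Stau1 arrays 1 to 3 gave 10.88, 11.03 and 10.96, inside or just above the controls. The sets overlapped, and the log2 change was 0.08 (SE 0.10, 95% interval -0.12 to 0.29, limma, adjusted p = 0.999). That interval spans 0.917-fold to 1.22-fold. NEFM was at 10.71, 10.77 and 10.43 in control and at 10.43, 10.75 and 10.67 in Stau1 arrays, with control replicate 3 and Stau1 replicate 1 low and the other 4 arrays close together. Its log2 change was -0.02 (SE 0.12, 95% interval -0.28 to 0.24, limma, adjusted p = 0.999).

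After normalization NEFL had the widest range of the 6 genes, and its spread lay among the controls. The deposited control intensities (356, 359 and 330) lay closer together. How much of the spread came from background correction and normalization was not tested. Control arrays 1 to 3 had log2 levels of 8.53, 8.34 and 7.67. Stau1 arrays 1 to 3 had 7.94, 8.06 and 8.21. Control replicate 3 was the lowest of the 6 arrays and control replicates 1 and 2 were the highest, so all 3 Stau1 arrays fell inside the control range. The log2 change was -0.11 (SE 0.20, 95% interval -0.53 to 0.32, limma, adjusted p = 0.999). Without control replicate 3 it was -0.36 (limma, adjusted p = 0.331), and without control replicate 1 it turned to 0.07. The residual SD of NEFL (0.33) was larger than that of 94.7% of the rows tested. The SD within groups was 0.45 in control and 0.13 in Stau1 arrays. After normalization, control replicate 3 was the lowest control for NEFL and NEFM and the highest for INA. Its deposited NEFM intensity (1790) was nevertheless the highest of the controls.

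**Figure D2:**
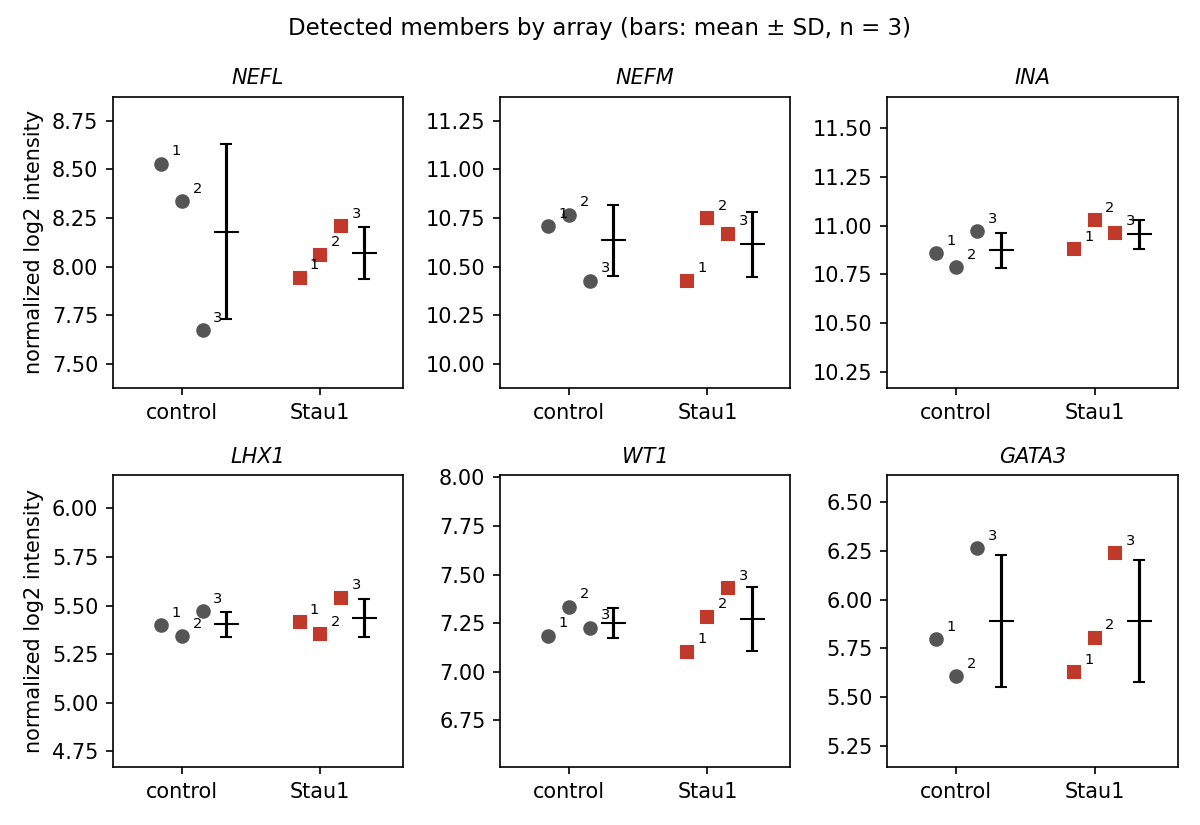
Normalized log2 intensity of the 6 genes compared, by array, with the replicate number beside each point and the mean ± SD (n = 3) to its right. Every panel spans the same height on the log2 scale: the groups overlap in all 6 panels, NEFL is widest among controls (7.67 to 8.53), and GATA3 is high on the third replicate of both groups.

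WT1 was at 7.19, 7.33 and 7.23 in control and at 7.10, 7.28 and 7.43 in Stau1 arrays, so the control values lay inside the Stau1 range. Its log2 change was 0.02 (SE 0.15, 95% interval -0.30 to 0.35, limma, adjusted p = 0.999). GATA3 was at 5.80, 5.61 and 6.27 in control and at 5.63, 5.80 and 6.24 in Stau1 arrays. The third replicate of each group stood above the other 4 arrays, and the group means were 5.89 ± 0.34 and 5.89 ± 0.31 (SD, n = 3). Its log2 change was 3.61e-04 (SE 0.20, 95% interval -0.43 to 0.43, limma, adjusted p = 0.999). LHX1 was at 5.40, 5.34 and 5.47 in control and at 5.41, 5.35 and 5.54 in Stau1 arrays, with a log2 change of 0.03 (SE 0.13, 95% interval -0.25 to 0.32, limma, adjusted p = 0.999). This near to background the log2 scale is compressed, and a change in LHX1 or GATA3 would be understated.

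**Figure D3:**
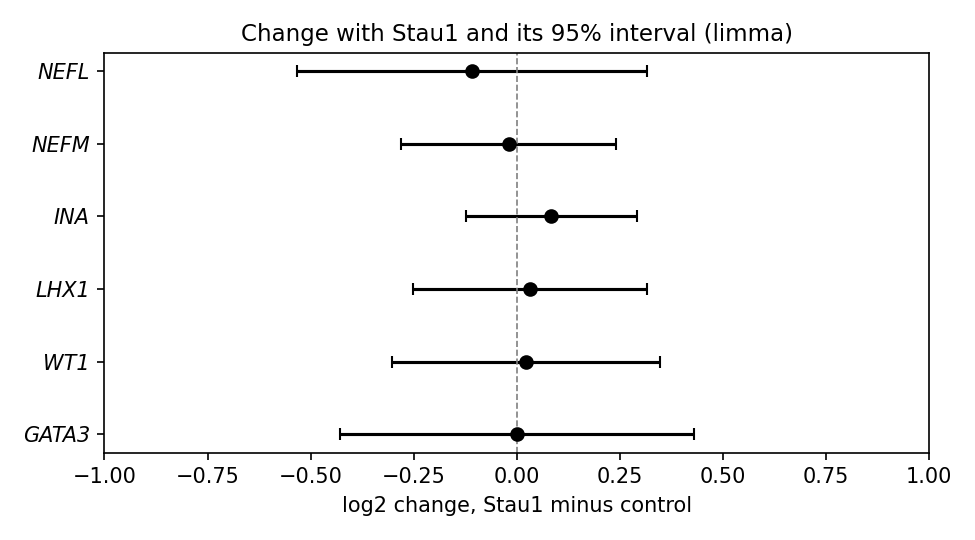
Log2 change, Stau1 minus control, of the 6 genes compared, with the limma 95% interval as a bar. Each interval includes 0, and the widest reach from -0.53 to 0.32 (NEFL) and from -0.43 to 0.43 (GATA3).

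All 6 intervals lay within 0.691-fold to 1.35-fold. The smallest and largest log2 changes were -0.11 and 0.08, where the median absolute change over all rows tested was 0.09. The 3 filament genes had a median change of -0.02 and the 3 kidney genes one of 0.02, and the median over all rows was -0.00214. For NEFH, PAX2, PAX8 and EYA1 no fold is given, because the rows did not pass the filter on detection. Without that filter all 10 genes were fitted, and 0 of the 10 passed in limma (lowest adjusted p = 0.999).

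Other intermediate filament genes place NEFL, NEFM and INA within their family. Of 16 such genes, 9 were detected on all 6 arrays and 6 on none, beside 28.8% and 57.9% of all rows. VIM (vimentin), the filament of mesenchymal and many cultured cells, was among the detected genes, as were PRPH (peripherin, a filament of peripheral neurons that assembles with neurofilaments), the lamins LMNA, LMNB1 and LMNB2, the keratins KRT8, KRT10 and KRT18, and the lens filament gene BFSP1. NES (nestin, of neural progenitors), GFAP (astrocytes), DES (muscle), SYNM, KRT7 and KRT19 were detected on none. In limma 0 of the 9 compared passed the threshold, and 2 of the 9 had an unadjusted p under 0.05, against 3.73% of all rows. KRT8, the partner of KRT18 in simple epithelia, was at 7.38, 7.24 and 7.26 in control and at 6.94, 6.33 and 6.76 in Stau1 arrays. All its Stau1 values lay below the controls, by a log2 change of -0.62 (SE 0.17, limma, adjusted p = 0.999), but the change was -0.07 when the background was inferred from all rows. LMNB2, a nuclear lamin, had a log2 change of 0.25 (SE 0.11, limma, adjusted p = 0.999) with overlapping groups. VIM was also lower on all 3 Stau1 arrays, at 13.03, 13.03 and 13.02 in control and 12.98, 12.96 and 12.96 in Stau1 arrays, a log2 change of -0.06 (SE 0.07, limma, adjusted p = 0.999).

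Beyond filaments, 8 of 20 neuronal genes were detected on all 6 arrays, 9 on some and 3 on none. Over the whole table the shares were 28.8% on all 6 and 57.9% on none. Those detected throughout were TUBB3 (a neuronal tubulin), UCHL1 (an abundant neuronal deubiquitinase), ENO2 (neuronal enolase), the synaptic genes SYP, SNAP25 and SYT1, DPYSL3 and the adhesion gene L1CAM. ELAVL3, ELAVL4 and RBFOX3, RNA-binding proteins of mature neurons, were detected on none. Among 12 sympathoadrenal genes, ISL1, CHGA, INSM1 and SLC18A1 were detected throughout, while 6 were detected on none: among them PHOX2A and HAND2, which specify the lineage, and TH, DBH and PNMT, enzymes that make catecholamines. Of 6 adrenal cortex genes, CYP11A1 was detected on all arrays, STAR on 4, and NR5A1, NR0B1, CYP17A1 and HSD3B2 on none.

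The other kidney genes were grouped by the stage or structure they mark. Their counts stand beside 28.8% of all rows detected on all 6 arrays and 57.9% detected on none. Of 15 nephron progenitor genes, 7 were detected on all 6 arrays (among them SIX2, CITED1, BMP7, HOXA11 and HOXD11), 3 on some and 5 on none (TCF21, GDNF, ITGA8, FGF8 and WNT4). SIX2, a partner of EYA1, was detected where EYA1 was not. Of 12 ureteric bud genes, 5 were detected on all arrays (WNT11, EMX2, CDH1, SPRY1 and ETV5), and RET, the receptor for GDNF, on 5 arrays. Of 18 genes of the differentiated nephron, 1 was detected on all 6, and 12 were detected on none. Those 12 included NPHS1 of the podocyte, CUBN of the proximal tubule, and UMOD, SLC12A1 and SLC12A3 of the distal nephron. Of the markers of embryonic kidney, WT1 and SIX2 were thus detected throughout, and PAX2 and PAX8 lay at background.

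**Figure D4:**
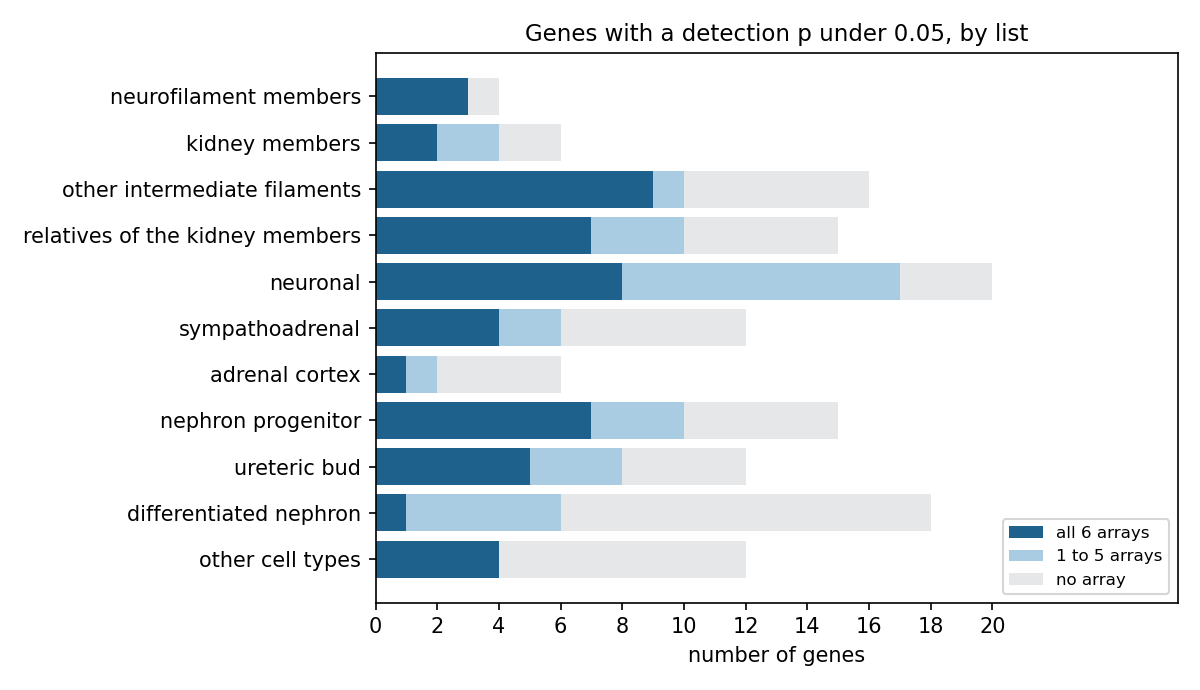
Number of genes per list that passed detection (p under 0.05) on every array (dark), on 1 to 5 (light) and on none (grey). Of the differentiated nephron genes 1 of 18 is dark, against 7 of 15 nephron progenitor genes, 8 of 20 neuronal genes and 3 of the 4 filament genes described here. Of the markers of other cell types 4 of 12 are dark, and 28.8% of all rows passed on every array.

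Close relatives of the kidney genes were also measured. PAX6, PAX7 and PAX9 were detected on all 6 arrays and PAX5, of the same subfamily as PAX2 and PAX8, on none. EYA4 was detected on all arrays, EYA2 on 1 and EYA3 on none. The rows of all 3 average several probes. GATA2 and GATA4 were detected throughout and GATA1 and GATA6 on none. LHX2 was detected throughout, LHX5 on 1 array and LHX9 on none. Probe sequences were not used here, so how far a probe also reads a relative was not tested.

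In limma 0 of the 60 compared genes of these lists passed, and 2 (KRT8 and LMNB2) had an unadjusted p under 0.05. The Stau1 arrays lay wholly above the controls for 3 of the 60 (GATA2, SLC18A1 and HOXD11) and wholly below for 5 (VIM, KRT8, GAP43, GFRA1 and PECAM1), beside the 4.51% and 3.4% of all rows given above. The median log2 change was 2.74e-04 for the 13 neuronal genes compared, 0.16 for the 5 sympathoadrenal genes and 0.02 for the 2 adrenal cortex genes. It was 0.04 for the 9 nephron progenitor genes, -0.03 for the 8 ureteric bud genes and -0.03 for the 3 genes of the differentiated nephron. It was -0.06 for the 9 other intermediate filament genes, -0.10 for the 7 relatives and -0.21 for the 4 markers of other cell types. Genes with the lowest unadjusted p in each list are given next as mean log2 level ± SD (n = 3), control first and Stau1 after it. Among the relatives, LHX2 was at 7.85 ± 0.08 and 7.57 ± 0.31 and GATA4 was at 5.93 ± 0.06 and 6.23 ± 0.28. Among neuronal genes, MAP1B was at 5.75 ± 0.12 and 5.90 ± 0.08 (a microtubule-associated protein) and GAP43 was at 5.59 ± 0.06 and 5.37 ± 0.14 (a growth cone protein). Neither pair passed the test. Among sympathoadrenal genes, CHGB was at 5.62 ± 0.48 and 5.94 ± 0.34 and SLC18A1 was at 5.19 ± 0.07 and 5.44 ± 0.11 (a vesicular monoamine transporter). In the adrenal cortex list, STAR was at 5.09 ± 0.04 and 5.12 ± 0.12 and CYP11A1 was at 5.64 ± 0.11 and 5.66 ± 0.07, both of which act at the start of steroid synthesis. Among nephron progenitor genes, OSR1 was at 5.48 ± 0.28 and 5.72 ± 0.12 and HOXD11 was at 9.38 ± 0.05 and 9.53 ± 0.10. In the ureteric bud list, GFRA1 was at 5.60 ± 0.16 and 5.34 ± 0.07 (a co-receptor of RET) and CDH1 was at 6.86 ± 0.53 and 6.44 ± 0.32 (E-cadherin). In the differentiated nephron list, PODXL was at 8.16 ± 0.24 and 8.06 ± 0.17 (podocalyxin, of the podocyte surface). None of these passed either. Among the markers of other cell types, PECAM1 was at 6.27 ± 0.24 and 6.06 ± 0.04 and COL1A1 was at 5.85 ± 0.36 and 5.60 ± 0.20. Of 12 markers of other cell types, 8 were detected on none of the arrays, among them PTPRC (leukocytes), CDH5 and VWF (endothelium), ALB (liver) and HBB (red cells). The other 4, among them PECAM1, COL1A1 and ACTA2, were detected on all 6. The summed intensity of the list lay between 10.58 and 11.09 (log2) in control and between 10.68 and 10.89 in Stau1 arrays, before normalization.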

How the data were processed

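Total RNA from 3 control and 3 Stau1 samples had been labelled and hybridized to Illumina HumanWG-6 BeadChips. Per the file headers, the deposited intensity was a BeadStudio gene profile without normalization, averaged over each gene's probes. The authors also deposited a detection p-value per gene and array, and the standard error over beads as an intensity. The deposited score of bead number is likewise an average over probes.

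The members and lists were chosen with earlier results of these data known. In R 4.3.3, limma 3.58.1 applied normexp (offset 16), then quantile normalization, then log2. Background means and SDs were estimated through the detection p-values of the 30932 rows of 1 probe (whole bead numbers and p in steps of 1 in 759, within 0.002 steps); the means were 74.6 to 92.7. Fitting used the 13285 rows whose detection p was below 0.05 on 3 or more arrays (lmFit, then eBayes with a trend). Benjamini-Hochberg adjustment ran over all of them. The code of the fit was checked on simulated rows with independent noise, which does not measure its power on these arrays. Named genes were the 10 members, STAU1, list genes detected on all or no arrays, and per list the 2 compared genes with the lowest unadjusted p. Some list genes are counted but not reported here by name. VIM, PRPH, GATA2, RET, LHX5 and EYA2 were given values or counts after these were seen. RefSeq synonyms matched 3 list genes under older symbols. Figures used matplotlib 3.10.9.

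Alternatives were leaving out each array, a replicate block, array weights, eBayes without a trend, and the methods' t-test (two-sided, pooled variance). Others were no filter or a stricter one (0.01), scaling by medians or cyclic loess in place of quantiles, and an offset of 50. The background was also taken from all rows or not corrected. The t-test was run on the normalized values described above, with Benjamini-Hochberg adjustment and without the study's fold cut-off.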

Additional observations from a re-analysis of the deposited data

How the results depend on the processing

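No member passed an adjusted p of 0.05 under any of the 11 other settings with all arrays (limma or the methods' t-test). None passed with 1 of the 6 arrays left out either. The lowest adjusted p was 0.331, for NEFL without control replicate 3, where 1 member (NEFL) had an unadjusted p under 0.05 and limma called 47 rows of the table, as against 0 without any other array. No gene of the fixed lists passed an adjusted p of 0.05 either. At an unadjusted p under 0.05 the methods' t-test gave 3 of the 60 list genes and 0 of the 6 members. The signs of small changes were not stable, since 15 of the 100 recomputed member changes reversed, none of them called, and the cause was not tested. GATA3 was -0.0003 with no background correction, -0.0001 with the background from all rows, -0.0006 with an offset of 50 and -0.0244 with cyclic loess, and its largest value of any setting was 0.2233, with array weights (limma, adjusted p = 0.738). LHX1 was 0.0932 with array weights, and WT1 was 0.1031 with median scaling. NEFM was 0.0724 with median scaling, which moved the median of all rows from -0.00214 to 0.0679. With 1 array left out, NEFL ran from -0.3636 to 0.066, NEFM from -0.1223 to 0.0738, LHX1 from -0.0205 to 0.0721, WT1 from -0.0579 to 0.1084, and GATA3 from -0.1734 to 0.1814. INA was higher with Stau1 under every setting, from 0.041 to 0.1752.

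At a detection p under 0.01 on at least 3 arrays, 4 members were detected (NEFL, NEFM, INA and WT1). The count at 0.05 was 6 whichever array was left out.

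Deviations from the group means correlated at 0.02, 0.26 and -0.14 between control and Stau1 arrays of the same replicate number. Arrays of unlike number were not compared, so these values cannot decide whether the samples were paired, and the labels name no pairing. With the replicate block 0 members passed. The slide as a block was not run, since the table names no slide. Low signal over background limits LHX1 and GATA3 and kept NEFH, PAX2, PAX8 and EYA1 out of the filtered fit.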
